A study of Lentinus tigrinus with 27 samples.

Results

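The mature gills (lamellae) of the mushroom Lentinus tigrinus were compared with the young cap that precedes them, gene by gene. The compared groups differ in both tissue and stage, and this comparison cannot tell those differences apart. Members were taken by their titles, which name 3 libraries of fruiting body lamellae (FB_lamellae) and 3 of young fruiting body cap (YFB_cap), 6 of the 27 libraries of the series. All come from strain RLP-9953-sp, fruited on aspen sawdust with wheat bran, first for 21 days in the dark at 30 °C and then at 25 °C under 12 h of light and 12 h of dark. FB_lamellae came from fruiting bodies 50 to 70 mm tall whose caps had flattened. YFB_cap came from bodies with a stipe of 30 to 40 mm and a brown cap initial at most 5 mm wide, on whose underside gills could only just be seen, so the young cap may hold some early gill tissue. The growth protocol names cap and stipe samples and says nothing of how lamellae were cut free, and lamellae are known only from the tissue label. The other groups used below as context are vegetative mycelium (VM), the stage 1 primordium without a cap (P1), cap and stipe of the stage 2 primordium (P2_cap, P2_stipe), the young stipe (YFB_stipe), and the mature cap and stipe (FB_cap, FB_stipe), with 3 libraries each.

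In gilled mushrooms the lamellae carry the hymenium, the layer of basidia. In these cells the paired nuclei fuse, meiosis follows, and spores form on short stalks at the cell tip. The young cap is still laying down tissue, and its growth later turns to expansion of cells already made. The deposited files give gene models by number only. The RefSeq table at hand, of assembly Lenti7_1, matched 0 of the identifiers, so no gene can be given a name or a role, the tissue labels could not be checked against marker genes, and no sequence is shown. Genes are therefore described by how they move and where else they are expressed, and only the 2 largest rises and 2 largest falls by the naming rule are given by number.

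The 3 FB_lamellae libraries held 17286894, 10841296 and 11241628 reads assigned to genes, and the 3 YFB_cap libraries 17045142, 17571910 and 23072976 reads. Of 15581 gene models, 13569 had enough reads to be tested. The design text calls the libraries of a group biological replicates. The 3 lamellae libraries were not alike. Replicates 1 and 2 resembled each other, with a Spearman correlation of 0.952 over 13569 genes. Replicate 3 had correlations of 0.910 and 0.921 with them. Among all 26 other libraries, those most like FB_lamellae replicate 3 were the 3 YFB_cap libraries, at 0.950, 0.948 and 0.936. The YFB_cap libraries had correlations of 0.975 to 0.985 among themselves. FB_lamellae replicate 3 stood apart from its group and nearer to the young cap. From these files, a difference in the tissue taken and an error of label cannot be told apart, and replicate 3 enters the lamellae mean and each call below. The counts of calls and the main shares are therefore also given without it.

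**Figure D1:**
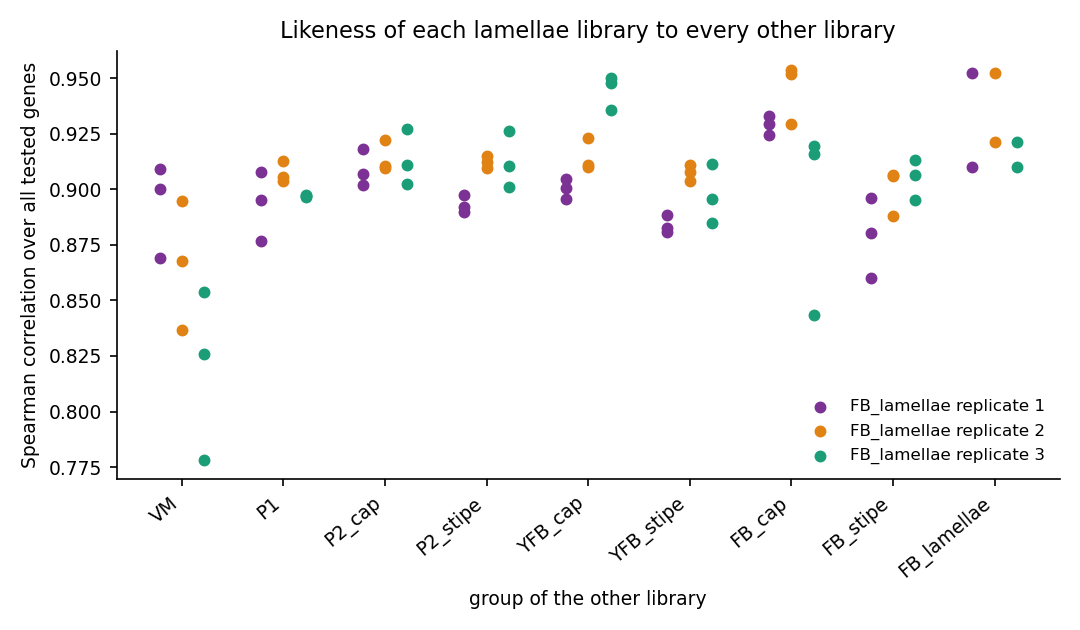
Spearman correlation (vertical axis) over 13569 genes between each FB_lamellae library (colour) and every other library, sorted by the group of that library (horizontal axis). Each point is 1 pair of libraries. FB_lamellae replicate 3 lies highest against YFB_cap, between 0.936 and 0.950, while replicates 1 and 2 lie highest against each other or FB_cap.

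In the fit of all 27 libraries, more genes were called higher in lamellae than lower. This excess was far smaller in the 6 libraries alone, with 74 higher and 70 lower. Groups that did not overlap, called or not, had lamellae below (14.2% of tested genes) more often than above (11.5%). In FB_lamellae, 1213 of 13569 genes (8.94%) differed from YFB_cap by at least 2-fold at an edgeR adjusted p under 0.05. Of these, 856 (6.31% of all tested) were higher and 357 (2.63%) were lower. In this fit the called rises were also larger on average, though not in FB_lamellae replicate 3 taken alone, as given below. Of the 551 genes past 4-fold (4.06%), 448 (3.3% of all tested) were among the 856 and 103 (0.759%) among the 357. The 4-fold counts were 717 in all without FB_lamellae replicate 3, with 599 higher and 118 lower. They were 344, with 263 higher and 81 lower, without YFB_cap replicate 2, and 298 higher genes passed 4-fold without YFB_cap replicate 3. With flowcell as a covariate there were 298, with 200 higher and 98 lower, and in the 6 libraries alone 107, with 55 higher and 52 lower. At an unadjusted p under 0.05, edgeR's test passed 26.9% of genes. The median log2 fold change was 2.09 for the genes that rose and -1.61 for those that fell, against 0.02 over all genes tested. With limma-voom the same genes had medians of 1.81 and -1.63. Past 16-fold there were 87 rises and 13 falls. Both directions occurred at all levels of expression. Rises made up 5.86% of genes with a mean under 5 CPM (read counts scaled to library size) over the 27 libraries and 5.55% of those over 100 CPM. Falls made up 1.51% and 3.4% of the same classes. In tissue samples, a change in how many cells of a type were present and a change in RNA per cell cannot be told apart.

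The counts depended on which libraries entered the fit. A fit of the 6 libraries alone called 144 genes, 74 higher and 70 lower, although 839 of the 856 rises and 355 of the 357 falls kept their direction there. Without FB_lamellae replicate 3, 1860 genes were called, 1279 higher and 581 lower. Without replicate 1 there were 712, with 497 higher and 215 lower, and without YFB_cap replicates 2 or 3 there were 605 or 724.

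**Figure D2:**
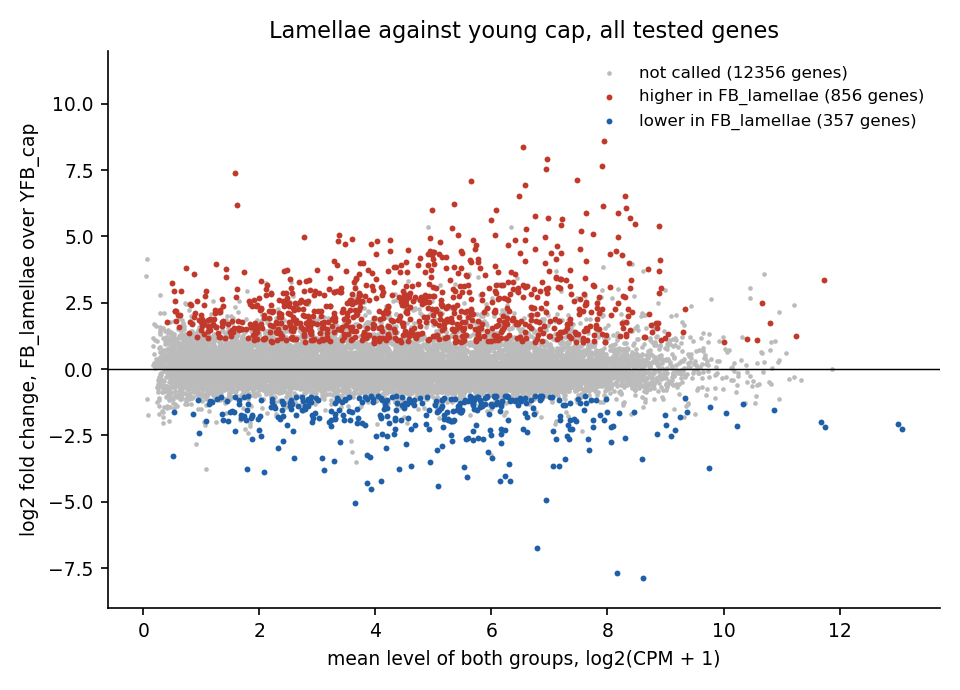
Log2 fold change of FB_lamellae over YFB_cap (vertical axis) against the mean level of both groups as log2(CPM + 1) (horizontal axis) for 13569 genes, 1 point per gene. The 856 genes higher in lamellae (red) reach larger changes than the 357 that were lower (blue).

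The called falls were of like size in the 3 lamellae libraries, and the called rises were larger in replicates 1 and 2. In FB_lamellae replicates 1, 2 and 3, the 357 lower genes lay a median of -1.55, -1.38 and -1.33 below the YFB_cap mean on the log2(CPM + 1) scale. The 3 libraries all helped to choose these genes, and a check on genes chosen without each library is given below. For the 856 higher genes the medians were 1.81, 1.78 and 0.73. In replicates 1 and 2, 695 and 712 of these genes stood at least 2-fold above the YFB_cap mean, and in replicate 3 there were 334. The lowest of the 3 lamellae libraries was replicate 3 for 550 of the 856 genes. The groups did not overlap for 25.8% of all tested genes, 11.5% with lamellae above and 14.2% with lamellae below. All 3 lamellae libraries lay above all 3 young caps for 570 of the 856 higher genes and below them for 353 of the 357 lower genes. The same values made the calls, so nothing is read from these counts.

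Each lamellae library was also compared with libraries outside the compared groups, for genes called without it. Genes were called without that lamellae library, among the 13569 genes tested with all libraries. Its level was then set against the mean of P2_cap, the cap of the stage before. The P2_cap libraries were in neither compared group, but they entered the filter, the scaling and the shared error estimate of these calls. Of 496 genes higher without FB_lamellae replicate 1, 479 (96.6%) lay above P2_cap in replicate 1, against 50.0% of all tested genes. Of 610 genes higher without replicate 2, 575 (94.3%) lay above it in replicate 2, against 48.3% of all. In replicate 3, of 1274 genes higher without it, 637 (50.0%) lay above P2_cap and 637 below, against 47.2% of all above. At least 2-fold above P2_cap were 264 of these (20.7%, against 8.94% of all tested genes), and 197 (15.5%, against 10.1%) were at least 2-fold below. Replicate 3 was thus split, with more genes than usual far from P2_cap on both sides. For lower genes it also moved less than the others. Below P2_cap were 211 of 215 in replicate 1 (98.1%) and 268 of 286 in replicate 2 (93.7%). In replicate 3 there were 390 of 581 (67.1%), against 52.8% of all tested genes. The median differences were -1.84, -1.43 and -0.44 in log2(CPM + 1) for replicates 1, 2 and 3.

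**Figure D3:**
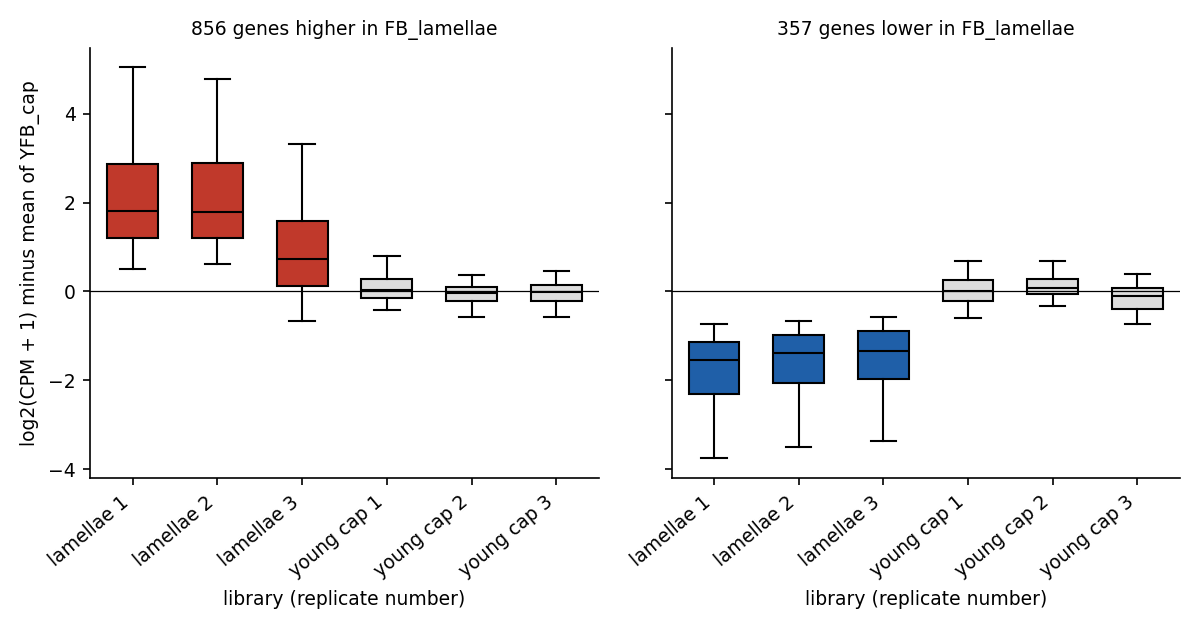
Difference of each library from the YFB_cap mean in log2(CPM + 1) (vertical axis) for the 856 genes higher and the 357 genes lower in FB_lamellae, by library (horizontal axis). Boxes give the median and quartiles and whiskers the 5th and 95th percentiles over genes. The higher genes have a median of 0.73 in lamellae replicate 3 against 1.81 and 1.78 in replicates 1 and 2, and the lower genes have medians of -1.55, -1.38 and -1.33. All 6 libraries helped to choose these genes.

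These genes carried a sizeable part of the RNA. The 856 higher genes took 12.9%, 13% and 7.15% of the reads in FB_lamellae replicates 1, 2 and 3, against 2.71%, 2.47% and 2.67% in the YFB_cap libraries. The 357 lower genes took 1.38%, 3.05% and 2.24% in FB_lamellae, against 9.39%, 9.92% and 7.85% in YFB_cap. These shares describe genes picked for their change and carry no test. The 10 most abundant genes of each library took 4.56% ± 1.08 of reads in FB_lamellae and 5.97% ± 0.74 in YFB_cap (SD, n = 3 each). That difference did not pass an exact two-sided permutation test (p = 0.2, and 0.1 is the smallest that 3 against 3 libraries allow). Few genes went from near absence to a clear level: 11 of the 856 averaged under 1 CPM in YFB_cap and at least 10 CPM in FB_lamellae, and 1 of the 357 did the opposite. Gene length, which the choice did not use, was similar in the sets. The median was 1284 bases for the higher genes and 1235 for the lower ones, against 1307 for all tested. Models of 500 bases or less made up 5.72%, 5.60% and 5.74% of the 3 sets.

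Across the 9 groups, the higher genes most often had their highest mean in lamellae, next most often in mycelium. FB_lamellae had the highest group mean for 433 of the 856 (50.6%), against 12.4% of all tested genes. VM was highest for 253 (29.6%, against 22.9% of all), FB_cap for 111 (13%, against 8.31%) and P1, FB_stipe or YFB_stipe for the rest. The same lamellae values made the calls, which favours a peak in FB_lamellae, so nothing is read from the size of that share. A peak in YFB_cap was not possible, since each gene was called higher in FB_lamellae. The choice also disfavours a peak in P2_cap, whose libraries had Spearman correlations of 0.958 to 0.976 with those of YFB_cap. P2_cap was highest for 0 of the 856, and for 9 of the 1279 called without FB_lamellae replicate 3, with group means still taken over all libraries. For the 253 genes with a VM peak, the median level per library in FB_lamellae replicates 1, 2 and 3 was 4.89, 4.37 and 2.98 in log2(CPM + 1). It was 5.62, 5.52 and 5.33 in VM and 2.73, 2.32 and 2.34 in YFB_cap. These genes were chosen with a lamellae mean above YFB_cap and below VM, so the place of the group between them restates the choice. Within the group, FB_lamellae replicate 3 lay nearer to YFB_cap than to VM, and replicates 1 and 2 lay higher. The 433 genes with a lamellae peak had medians of 5.25, 5.73 and 4.16 in FB_lamellae and of 2.80, 2.86 and 2.84 in YFB_cap. These medians restate the choice of the genes, and replicate 3 was the lowest of the lamellae libraries. The number of VM-peaked genes hung on single libraries, with 447 of 1279 (34.9%) without FB_lamellae replicate 3 and 87 of 497 (17.5%) without replicate 1. There were 94 of 396 without YFB_cap replicate 2 and 97 of 465 without YFB_cap replicate 3. With flowcell as a covariate there were 75 of 363, and with glmTreat (a test against 2-fold) 26 of 211. The share without FB_lamellae replicate 1 was below the 22.9% of all tested genes. So were the shares without YFB_cap replicate 3, with flowcell as a covariate and with glmTreat. No excess of VM peaks is therefore read. The lamellae-peaked genes ranged from 243 to 491 over the 6 fits that each left out 1 library, the lowest without YFB_cap replicate 2.

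The lower genes most often had their highest mean in the stage 2 cap. P2_cap held the highest mean for 142 of the 357 (39.8%, against 9.36% of all tested) and YFB_cap for 67 (18.8%, against 13.6%). FB_stipe, the mature stipe, was close to YFB_cap with 64 (17.9%, against 13%). Each gene was called lower in FB_lamellae than in YFB_cap, which favours a peak in YFB_cap and allows none in FB_lamellae. P2_cap resembles YFB_cap over all genes, so the choice favours a peak there as well. Nothing is read from the size of the P2_cap and YFB_cap shares. The P2_cap count was 152 of 581 (26.2%) without FB_lamellae replicate 3 and 96 of 215 (44.7%) without replicate 1. The 142 genes with a P2_cap peak had medians of 3.27, 3.17 and 3.43 in the FB_lamellae libraries and of 5.26, 5.31 and 4.78 in YFB_cap. In P2_cap they had 6.11, 5.89 and 6.01, a level above that of the young cap, as the choice by highest group requires on average. The 64 genes with an FB_stipe peak had medians of 3.59, 3.81 and 3.82 in FB_lamellae and of 5.39, 5.87 and 5.81 in YFB_cap. In FB_stipe they stood at 6.83, 6.51 and 7.07, the highest of any group by choice.

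**Figure D4:**
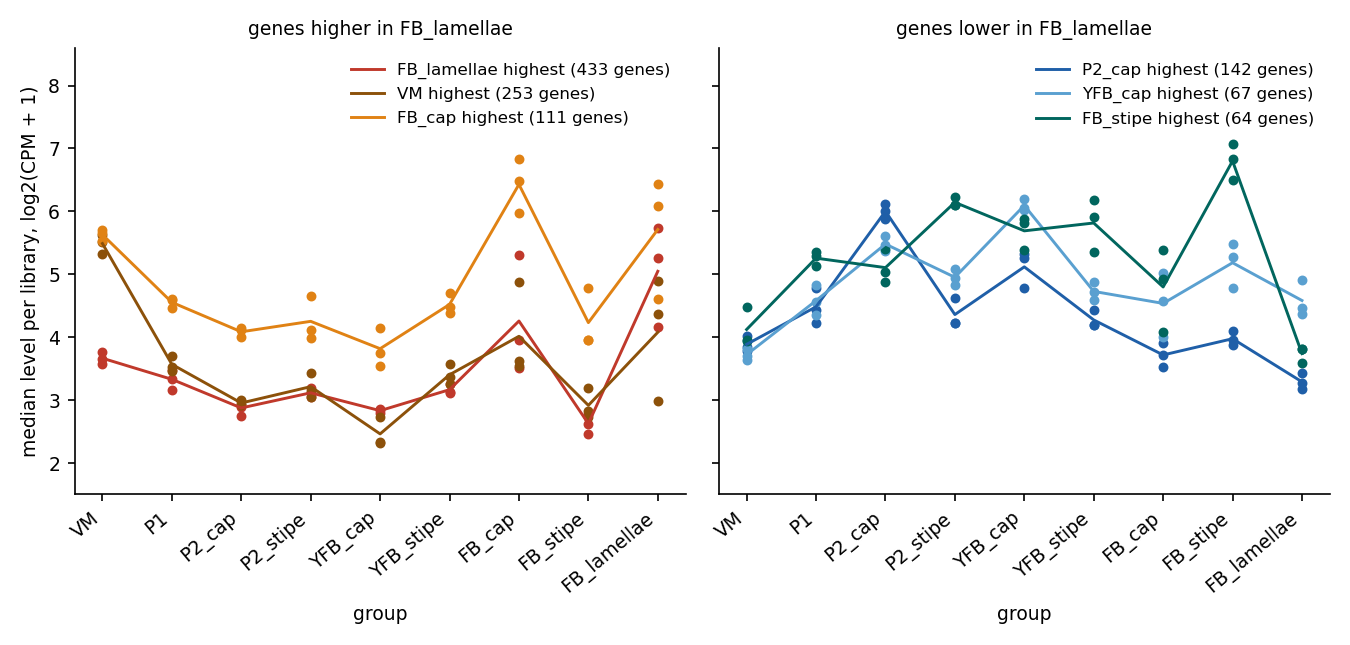
Median level per library in log2(CPM + 1) (vertical axis) by group (horizontal axis) for genes higher (left) and lower (right) in FB_lamellae, split by the group with the highest mean. Points are libraries and lines join the group means of these medians. The 253 higher genes that peak in VM stand between 2.98 and 4.89 in the lamellae libraries, and the 142 lower genes that peak in P2_cap stand between 3.17 and 3.43. The genes were chosen and split on these same levels.

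The same genes were then followed in comparisons that use neither the lamellae nor the young cap libraries, though all share the model's error estimate. Maturation of the cap was read from FB_cap against P2_cap, in which 12% of all tested genes were called, 7.9% higher and 4.1% lower. Of the 856 genes higher in lamellae, 406 (47.4%) were also higher in FB_cap and 0 were lower, with a median log2 fold change of 1.4 against 0.06 over all genes. These 406 make up 37.9% of the genes higher in FB_cap. Of the 357 lower genes, 174 (48.7%) were also lower in FB_cap and 5 were higher, with a median of -1.05, and the 174 make up 31.2% of the genes lower in FB_cap. Without FB_lamellae replicate 3 the shares were 47.1% and 43.7%. Without replicate 1 they were 61.2% and 57.7%. FB_cap replicate 2 was the library of its group in which the higher genes stood highest, at a median of 5.25 against 3.73 and 4.12 in replicates 1 and 3. When FB_lamellae replicate 1 was dropped together with FB_cap replicate 2, the shares came to 34.9% and 47.4%. Whether cap and lamellae libraries were cut from the same fruiting bodies is not stated.

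The mycelial side was read from VM against P1, in which 15% of all tested genes were called, 8.08% higher in VM and 6.91% lower. Of the 856 genes higher in lamellae, 228 (26.6%) were higher in VM and 21 (2.45%) were lower. Of the 357 lower in lamellae, 129 (36.1%) were lower in VM and 19 (5.32%) were higher. The medians were 0.58 and -0.77, against -0.03 over all genes. Without FB_lamellae replicate 3 the shares that matched in direction were 29.9% and 32.7%, and without replicate 1 they were 21.3% and 29.8%.

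In the stipe, the shares of these genes that were called lay nearer to those of all genes. In FB_stipe against YFB_stipe, 8.93% of all tested genes were called, 3.04% higher and 5.9% lower. Of the 856 genes higher in lamellae, 17 (1.99%) were higher in the mature stipe and 69 (8.06%) were lower, with a median log2 fold change of -0.32. Of the 357 lower genes, 26 (7.28%) were higher and 30 (8.40%) were lower, with a median of 0.00. Without FB_lamellae replicate 3, the lower genes turned to 11.9% higher and 5.68% lower, with a median of 0.23, so no direction in the stipe is read for them. The higher genes then had 2.58% higher and 9.70% lower. The difference between the 2 changes was tested itself, as the change from YFB_cap to FB_lamellae minus that from YFB_stipe to FB_stipe. It passed for 2461 genes (18.1%), with 1419 (10.5%) above zero and 1042 (7.68%) below. Without FB_lamellae replicate 3 there were 3240, and without YFB_cap replicate 3 there were 1511. With the labelled flowcell as a covariate 516 passed, and with the replicate number as a block 1542.

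The contrast of FB_lamellae with FB_cap is also the test of whether the change from YFB_cap differs between both mature tissues, and 327 genes passed (2.41%), 74 (0.545%) higher and 253 (1.86%) lower in FB_lamellae. It rested on the libraries chosen, with 38 genes without FB_lamellae replicate 3 and 702 without replicate 2. The 357 genes lower than in YFB_cap took 1.38% to 3.05% of the reads in FB_lamellae, and 8.77%, 5.51% and 8.06% in FB_cap replicates 1, 2 and 3. They were chosen for low values in these lamellae libraries, so the shares are a description only.

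The gene with the largest rise by the naming rule was Lenti6_1_576457, a model of 740 bases. It stood at 278, 453 and 1.81 CPM in FB_lamellae replicates 1, 2 and 3, against 1.63, 0.54 and 0.82 CPM in YFB_cap. Replicates 1 and 2 were high, and replicate 3, with 21 reads, lay just above the highest young cap, with 30 reads in a deeper library. The log2 fold change was 7.94 ± 1.35 (SE, edgeR adjusted p = 0.000933). In FB_cap it stood at 27.1, 175 and 10.5 CPM, which overlaps the lamellae, and FB_lamellae against FB_cap did not pass (log2 fold change 1.78, edgeR adjusted p = 0.338). In every other group the mean was at most 8.43 CPM, the value in VM.

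Lenti6_1_653074, of 811 bases, had the second largest rise by the naming rule. It stood at 177, 117 and 1.03 CPM in FB_lamellae, against 0.81, 0.38 and 0.94 CPM in YFB_cap. Again replicates 1 and 2 were high and replicate 3 lay at the level of the young cap. The log2 fold change was 7.08 ± 1.5 (SE, edgeR adjusted p = 0.00427). Its 3 FB_cap libraries had 7.69, 171 and 1.24 CPM, so FB_cap replicate 2 alone reached the level of the 2 high lamellae libraries. Without FB_lamellae replicate 3 the log2 fold changes were 8.52 for Lenti6_1_576457 and 7.66 for Lenti6_1_653074. Neither rise was called in the 6 libraries alone (edgeR adjusted p = 0.0716 for Lenti6_1_576457 and 0.0740 for Lenti6_1_653074). Lenti6_1_653074 also missed the threshold once flowcell entered the model (log2 fold change 4.80, edgeR adjusted p = 0.156) and with limma-voom (5.41, adjusted p = 0.0734).

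The largest falls by the naming rule were in Lenti6_1_615060 and Lenti6_1_615061, 2 models of 348 bases each. All reads of both were unique in the deposited counts. Lenti6_1_615060 stood at 1.5, 0.91 and 7.66 CPM in FB_lamellae, against 660, 633 and 1036 CPM in YFB_cap. Lenti6_1_615061 stood at 1.15, 0.72 and 6.45 CPM in FB_lamellae, against 789, 475 and 441 CPM in YFB_cap. The groups lay far apart for both, and lamellae replicate 3 was the highest of its group each time. The log2 fold changes were -7.86 ± 1.43 and -7.69 ± 1.51 (SE, edgeR adjusted p = 0.00141 and 0.00244). Both calls held in all 19 alternatives tried, at log2 fold changes of -9.30 to -6.42 and -9.21 to -6.38, with the lower bound of each from the fit without FB_lamellae replicate 3. On the length-scaled TPM scale the pair averaged 13.5 ± 15.6 and 11.2 ± 13.3 in FB_lamellae, against 3140 ± 866 and 2322 ± 870 in YFB_cap (SD, n = 3 each).

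Both of these genes were most abundant in the mature stipe. In FB_stipe, Lenti6_1_615060 averaged 4760 ± 4362 CPM and Lenti6_1_615061 3026 ± 2116 CPM (SD, n = 3 each), the highest means of the 9 groups, though the libraries overlapped those of YFB_stipe. YFB_cap stood sixth in the order of means, and its libraries did not overlap those of the next group down for either gene. FB_cap averaged 31.5 ± 31.8 and 14.4 ± 17.2 CPM, VM 11.5 ± 10.8 and 22.5 ± 22.8 CPM, and FB_lamellae had the lowest mean for both, overlapping its neighbour in the order. Against P2_cap, which shares no library with the main comparison, FB_cap was lower by log2 fold changes of -5.54 and -6.39 (edgeR adjusted p = 0.00575 and 0.00435).

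**Figure D5:**
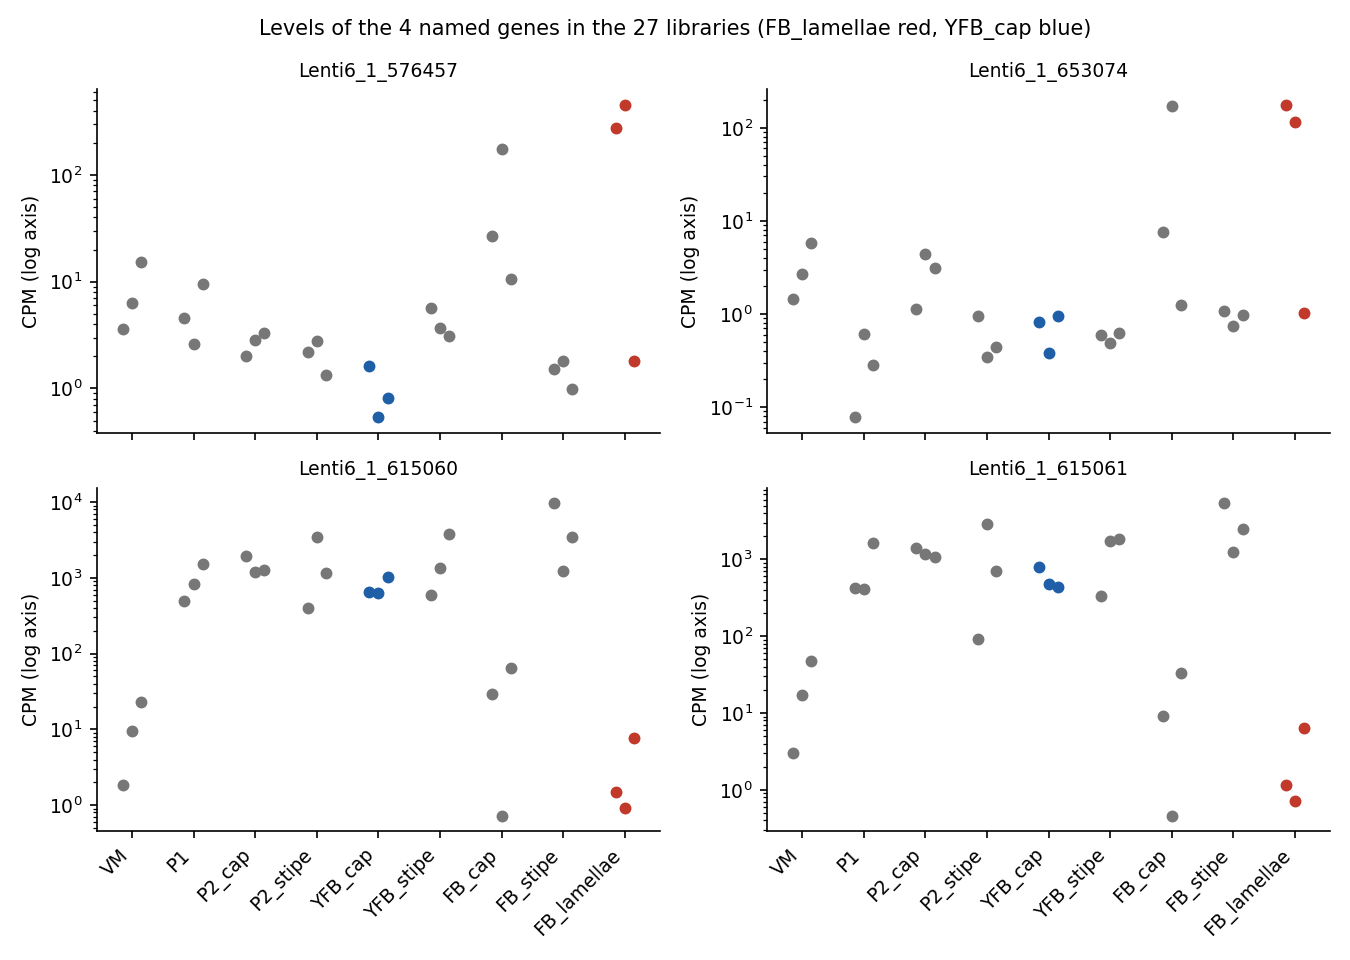
CPM on a log axis (vertical) of the 4 named genes in the 27 libraries, by group (horizontal axis), 1 point per library, with FB_lamellae in red and YFB_cap in blue. Of the red points, 2 lie high for the genes in the upper row and the third lies near the blue ones, while all 3 lie low for the genes in the lower row.

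The libraries were spread over flowcells, and the flowcell of FB_lamellae replicate 3 was the only one that also held a young cap, YFB_cap replicate 1. Between these 2 libraries, all 357 lower genes were lower in the lamellae, against 53.8% of all tested genes, with a median difference of -1.37 in log2(CPM + 1). Of the 856 higher genes, 639 (74.6%) were higher, against 46.1% of all, with a median of 0.65. Both libraries also entered the choice of these genes. FB_lamellae replicate 1 shared its flowcell with FB_cap replicate 2 and VM replicates 1 and 2. Its deviation from the lamellae mean had a correlation of 0.49 over 13569 genes with the difference of VM from P1, against -0.02 and -0.39 for replicates 2 and 3, and the part of the flowcell in this was not tested. The deviations of the lamellae libraries cancel out for each gene, so these correlations are not independent of each other. With flowcell as a covariate over the 27 libraries, 606 genes were called, 363 higher and 243 lower.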

How the data were processed

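Libraries of polyA RNA were prepared with version 2 of Illumina's RNA kit, per the labels. Strand is not stated, so reads of genes that overlap in opposite orientation cannot be separated. The submitters' processing notes name R 3.0.2, edgeR 3.4.2 and limma 3.18.13. An aligner is not given in the sources used here. The authors deposited, per library, counts of total and unique reads per gene model and TPM (per the file headers), and 1 table of log2 RPKM values. An RPKM column of zeros was not used.

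Total counts were tested with edgeR 4.0.16 (R 4.3.3): filterByExpr at a minimum count of 10, TMM scaling, and 1 quasi-likelihood model with 9 group means over 27 libraries (18 residual degrees of freedom, common coefficient of biological variation 0.343). A call needs a Benjamini-Hochberg adjusted p under 0.05 over 13569 genes and at least 2-fold. Tests are two-sided. CPM are TMM-scaled, and shares of reads use them. All groups share 1 error estimate, while the median SD between libraries in log2(CPM + 1) over all genes was 0.37 in FB_lamellae and 0.22 in YFB_cap. For the genes called higher it was 0.92 in FB_lamellae and 0.27 in YFB_cap, and for those called lower 0.42 and 0.33. The functions were tested on simulated data.

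To be named, a called gene needed groups that do not overlap and a higher mean of at least 20 CPM, and the 2 most changed in each direction were taken (340 and 239 were eligible). The members and comparisons were chosen with earlier results of these data known. The test of lamellae against stipe change and the held-out comparisons were added after seeing the data. Descriptive shares of list members carry no test. As a check for duplicate libraries, pairs within FB_lamellae and within YFB_cap were compared with counting noise, and none was a duplicate (chi-square per degree of freedom 71.3 to 253). Of the higher and lower genes, 19 and 3 had under 90% unique reads and are uncertain. Alternatives included DESeq2 1.42.0 and limma 3.58.1. Gene lists by function could not be made.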

Additional observations from a re-analysis of the deposited data

Results flagged for a closer look

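By a test of the difference itself, the change from YFB_cap to FB_lamellae differed from the change from YFB_stipe to FB_stipe in 2461 of 13569 genes. All 4 named genes were among those. They were chosen for their large change from YFB_cap to FB_lamellae, which is part of this contrast. Their passing is favoured by that choice, and nothing is read from it. The difference in log2 fold change (lamellae minus stipe) was 9.46 for Lenti6_1_576457 (edgeR adjusted p = 0.00126) and 6.37 for Lenti6_1_653074 (0.0315). It was -9.17 for Lenti6_1_615060 (edgeR adjusted p = 0.00191) and -8.90 for Lenti6_1_615061 (0.00322). Within the stipe none of the 4 passed on its own, with log2 fold changes of -1.52, 0.71, 1.31 and 1.21 in the same order. The change to FB_lamellae differed from the change to FB_cap, both from YFB_cap, in 327 genes.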

How the results depend on the processing

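With another scaling (RLE size factors), unique reads, no filter on low counts, the replicate block (1056 genes) or DESeq2 (1540), the count of 1213 genes stayed within 1.5 times. It was 606 with flowcell as a covariate, 144 in the 6 libraries alone, 283 with glmTreat (a test against 2-fold) and 605 to 1860 over the fits that each left out 1 library. The 856 rises became 363, 74 and 211 under the first 3 of these, 535 with limma-voom, 556 with limma on the deposited log2 RPKM and 396 to 1279 with 1 library left out. The 357 falls became 70 in the 6 libraries alone, 72 with glmTreat and 209 to 581 with 1 library left out. Of the rises, 284 were called in all 6 fits that left out 1 library, and of the falls 146.

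Deviations of same-numbered lamellae and young cap libraries from their group means had correlations of 0.05, -0.32 and 0.28 over 10258 genes. With 3 libraries per group, these values cannot decide whether replicate numbers pair the libraries. Pairing between tissues of the same stage was not examined. The replicate block gave 216 genes for FB_lamellae against FB_cap, 708 for FB_stipe against YFB_stipe and 1542 for lamellae against stipe change. Adding flowcell to the model made these 3 counts 194, 707 and 516. They were 4, 24 and 447 with glmTreat and 25, 2400 and 4207 with limma-voom and sample weights, an alternative added after seeing the data. DESeq2 gave 657 for FB_lamellae against FB_cap. Leaving out 1 library gave 38 to 702 for that contrast and 1511 to 3240 for lamellae against stipe change. VM against P1 had 1167 with flowcell as a covariate, 530 with glmTreat and 3183 with sample weights (1974 to 2168 with 1 library left out), and FB_cap against P2_cap had 283 with glmTreat. Without the flowcell of FB_lamellae replicate 1, chosen after seeing the data, FB_lamellae against FB_cap had 506 and VM against P1 1094. The difference in the share of the 10 most abundant genes kept its sign in the 7 alternatives run, at exact permutation p of 0.1 to 0.4. The cause of these differences was not tested. With 3 libraries per group, no exact permutation test can go below 0.1.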

Other observations

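Among the 100 genes with the highest mean TPM in FB_lamellae, 15 were higher and 4 were lower than in YFB_cap, where 6.31% and 2.63% of all tested genes were. Among the 100 with the highest mean TPM in YFB_cap, 0 were higher and 16 were lower in FB_lamellae. Picking genes by their level in 1 of the compared groups favours that direction, so nothing is read from these counts. The mature cap libraries also differed among themselves: the library most like FB_cap replicate 2 was FB_lamellae replicate 2 (Spearman correlation 0.952 over 13569 genes), and for FB_cap replicate 1 it was again FB_lamellae replicate 2 (0.954), while for FB_cap replicate 3 it was FB_cap replicate 1 (0.950). The 856 higher genes took 12.1% of the reads in FB_cap replicate 2, against 5.40% and 7.13% in FB_cap replicates 1 and 3.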
